A study of Mus musculus with 50 samples.

Results

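Nested opposite-strand gene pairs are pairs in which an annotated gene lies wholly within the span of a gene on the other strand and shares exon bases with it. The members were chosen by their summed counts and their coordinates: genes of chromosomes 1 to 5, 7 to 10 and 12 to 19 with 60 or more counts over 6 libraries, whose partner is the opposite-strand gene that shares the most exon bases with them, 50 or more, and where 1 span holds the other. By this rule 353 inner counted genes, which lie inside their partner, and 171 outer counted genes, which enclose it, were taken, 524 of the 3586 genes with that summed count on these chromosomes and of 37310 genes in all. A further 2 genes whose span equals that of their partner were left out. Some of the members are each other's partners, so that the 524 genes make up 412 different pairs.

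The RNA comes from J1 mouse embryonic stem cells (strain 129S4/SvJae), kept untreated on gelatin in medium with serum and the cytokine LIF. Total RNA was sequenced from KO1 and KO2, both lines of the genotype NSD1-/-, and from wild type J1 cells, with 2 libraries in each of the 3 groups. NSD1 deposits the histone mark H3K36me2, and the comparison asks which transcripts differ in its absence. The labels give neither how the lines were made nor whether each is 1 clone, and no label states that the 2 libraries of a line were grown apart. The p-values therefore reflect how far these particular libraries scatter, which may be technical scatter.

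A nested antisense gene is transcribed across exons or introns of its host in the other direction. Such genes are common among long noncoding RNAs, host genes of small RNAs and imprinted loci, where the transcript of 1 strand can be made from the other parental allele. A count table can hold such a pair apart only when the library keeps the strand of the RNA and the counting uses that strand in the right sense.

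Here the fragments were counted with a strand setting of 1, and abundant messenger RNAs had few counts while the genes opposite them had many, so each count was read as coming from the other strand than the gene it was counted for. The counts of an inner gene were thus read as fragments of its outer partner, and those of an outer gene as fragments of its inner partner or of any other transcript opposite its exons. The sources used here do not state whether the kit keeps strand. All values below belong to the counted gene, and the gene opposite is named beside it.

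The overlaps of a few pairs that the results turn on show how a count of 1 gene can come from the other. Each run is on the strand of the partner, in mm9 coordinates, with bases that lie in exons of both genes in capitals and up to 12 flanking bases outside the overlap in lower case. For long overlaps, 90 bases at the partner's 5′ side of the longest stretch free of annotated untranslated sequence are given.
RP23-396G1.3 opposite Tgm2, chr2:157943552-157943653, minus strand: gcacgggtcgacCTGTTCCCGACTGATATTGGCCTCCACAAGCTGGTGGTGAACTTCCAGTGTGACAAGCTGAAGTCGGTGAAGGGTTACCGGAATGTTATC
Gm15622 opposite Bhmt, chr13:94395354-94395455, minus strand: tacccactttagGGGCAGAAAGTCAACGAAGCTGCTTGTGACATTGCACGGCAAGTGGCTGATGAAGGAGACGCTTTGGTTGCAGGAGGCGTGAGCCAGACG
Gm17232 opposite Tdh, chr14:64116428-64116489, minus strand: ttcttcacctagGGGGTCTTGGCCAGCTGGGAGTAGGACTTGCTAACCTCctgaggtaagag
Gm11175 opposite Jund, chr8:73223440-73223529, plus strand: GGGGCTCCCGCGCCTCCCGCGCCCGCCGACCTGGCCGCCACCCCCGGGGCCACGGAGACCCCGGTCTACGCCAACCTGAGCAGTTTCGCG
Gm15441 opposite Txnip, chr3:96363589-96363690, plus strand: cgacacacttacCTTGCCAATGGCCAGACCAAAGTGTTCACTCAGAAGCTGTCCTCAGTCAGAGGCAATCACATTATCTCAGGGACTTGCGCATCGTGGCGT
A230005M16Rik opposite Bmyc, chr2:25562446-25562535, plus strand: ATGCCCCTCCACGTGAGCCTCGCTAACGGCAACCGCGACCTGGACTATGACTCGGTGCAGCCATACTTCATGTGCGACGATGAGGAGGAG
Gm17639 opposite Meg3, chr12:110806826-110806927, plus strand: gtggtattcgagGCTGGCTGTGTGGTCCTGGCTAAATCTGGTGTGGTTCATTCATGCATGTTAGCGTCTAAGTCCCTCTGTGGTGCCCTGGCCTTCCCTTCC
Gm20417 opposite Malat1, chr19:5798460-5798561, minus strand: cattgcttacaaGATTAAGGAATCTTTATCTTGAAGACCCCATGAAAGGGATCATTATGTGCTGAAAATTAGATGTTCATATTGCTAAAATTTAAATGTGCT

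The capitals in the first 2 runs, in the Tdh run, the Jund run, the Txnip run and the Bmyc run are coding sequence of the partner, and those of Meg3 and Malat1 are exons of noncoding RNAs. In the Tdh pair the 38 capitals are 1 of 2 overlap blocks that add up to 66 bases. The Jund overlap is 1 block of 543 bases, all of it coding.

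The outer gene Rtl1 encloses the miRNA gene Mir433, whose mature products, from RefSeq on GRCm38.p6, are given with the seed, bases 2 to 8, in capitals. The same is given for Mir1905, an inner member inside Mex3a, a gene for an RNA-binding protein.
miR-433-5p: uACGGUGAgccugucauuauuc
miR-433-3p: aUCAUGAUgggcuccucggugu
miR-1905: cACCAGUCccaccacgcgguag
The 3 seeds differ. Mir1905, named for its sequence and outside the rule for named genes, had 172 and 215 CPM in KO1, 126 and 145 CPM in KO2 and 199 and 214 CPM in wild type, and KO2 fell, at -0.61 ± 0.12 (SE). Fragments counted for a miRNA gene in these tables are not mature miRNAs, since they were read as the RNA of the opposite strand or host.

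Most inner counted genes were noncoding and most of their partners coded for protein. Of 353 inner genes, 156 are annotated as processed transcripts, 100 as lincRNAs, 66 as protein coding, 14 as pseudogenes, 13 as miRNAs, 3 as snoRNAs and 1 as a snRNA, and 341 of their partners are protein coding. The outer genes were the reverse, with 148 of 171 protein coding and 67 protein-coding partners beside 48 processed transcripts and 31 lincRNAs. An inner gene spanned a median of 3.25 kb within a partner of 40.3 kb, and an outer gene a median of 31.6 kb around a partner of 3.47 kb. The shared exon bases had a median of 286 for inner and 407 for outer genes, which is 32.4% of the exon bases of an inner gene and 8.55% of those of an outer gene. In 265 inner pairs the overlap touched coding bases of the partner, in 145 of these it was wholly coding, and in 59 it lay in its untranslated bases alone. All exons of 71 inner genes lay within exons of the partner.

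The splice sites of the inner genes followed their own annotated strand. Of 758 inner introns, 87.1% had the GT-AG ends of their own strand and 2.90% the CT-AC ends that a GT-AG intron of the other strand would show. The values were 96.9% and 0.0879% of 3412 introns in outer genes, and 5 inner and 4 outer genes shared an intron with their partner base for base. Among inner genes 53 had no intron, among them all 13 miRNAs and 14 pseudogenes, and 21 of the protein-coding genes.

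Levels are a description here, since the summed count chose the members. Inner genes held 60 to 40119 counts over 6 libraries with a median of 599, and outer genes 60 to 146518 with a median of 218. Without AY036118, a locus that took 32.3% to 37.2% of all counts, inner genes held 15.7% to 16.8% of the counts of a library and outer genes 5.93% to 6.17%. The inner gene had more counts than its partner in 307 of 353 cases and at least 10 times as many in 222. The outer gene had more in 93 of 171 cases and at least 10 times as many in 59.

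The inner gene with the most counts was Gm17675, with 40119 against 62 for Zfp106, which encloses it and codes for a zinc finger protein. Gm17638 followed with 37409 counts inside Eif3d, a subunit of translation initiation factor 3, which had 72. Gm17300 held 28462 inside Snhg3, a host gene of snoRNAs with 1 count. AF085738 held 25582 inside Gnas, the imprinted gene of the stimulatory G protein alpha subunit, which had 677. Gm17232 held 24738 inside Tdh, threonine dehydrogenase, an enzyme that mouse embryonic stem cells are known to depend on, with 115. In all 5 the outer partner had the lower count.

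Among outer genes the most counts fell on Gm17431, a lincRNA around the pseudogene Gm15459, with 146518 against 43, and pseudogenes can share reads with near-identical copies, so this value is uncertain. Wdr38 held 30797 counts around Rpl35, a protein of the large ribosomal subunit, which had 152. 4930558J22Rik held 9990 around the histone H4 gene Hist1h4b, Ggnbp1 7128 around Bak1, a pore-forming activator of apoptosis, Tbp, the TATA-binding protein, 6025 around Pdcd2, and Gm15441 4737 around Txnip, the thioredoxin-interacting protein. Counts per base of overlap mean little here, because a fragment is counted when any part of it touches an exon. The 24738 counts of Gm17232 were made over all its exons, of which 66 bases overlap exons of Tdh.

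**Figure D1:**
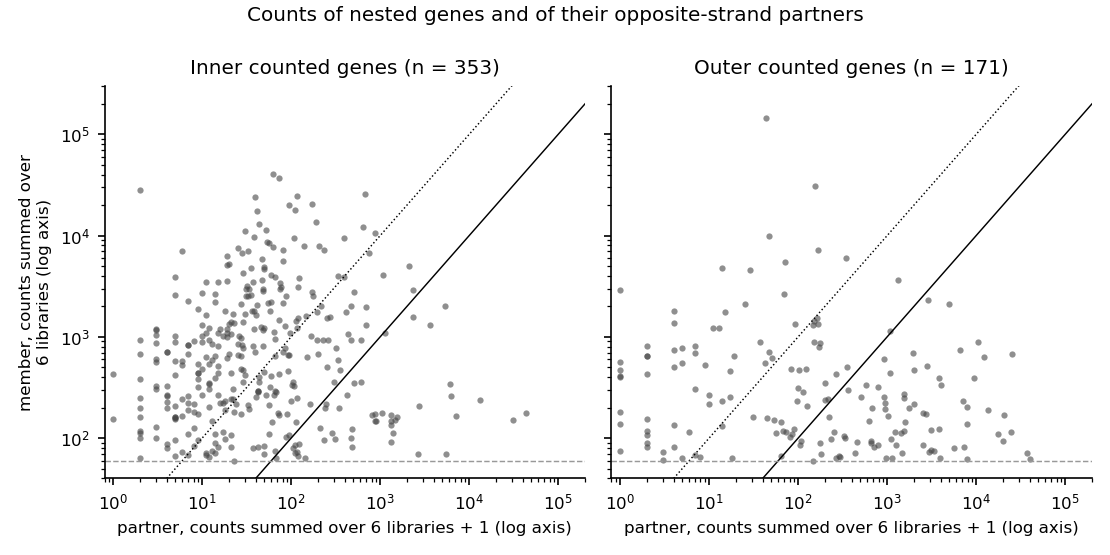
Counts summed over 6 libraries of each member (vertical, log axis) against those of its partner plus 1 (horizontal, log axis), for 353 inner genes at left and 171 outer genes at right. Points above the solid line have more counts than the partner, those above the dotted line at least 10 times as many, and the dashed line is the threshold of 60. Of the inner genes 307 lie above the solid line, and of the outer genes 93.

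At the threshold the values run on without a step. The inner members next above 60 were 1700099I09Rik inside Mast4 with 60 counts, and Gm9821 inside Dgkz and Mir135a-1 inside Glyctk with 63 each, and next below were Gm17025 with 57 and Gm12843 and 7SK with 56 each. The outer members next above were Slc6a9 with 60, Ank1 with 61 and Zfp106 with 62, and next below were Lrrc8d and Gm17290 with 59 each and Rbm38 with 58. With no limit on the summed count, annotated nested genes of these chromosomes numbered 687 inner and 583 outer.

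Libraries held 1150089 to 1285487 counts, and the median tested gene 23 to 27 counts per library. All 524 members passed the filter on low counts, which the summed count of 60 largely ensures, and were tested among 5034 genes. Differences were tested with the quasi-likelihood test of edgeR over all genes, a gene counted as called at a Benjamini-Hochberg adjusted p under 0.05, and CPM is the count scaled to the usual CPM unit by the TMM-adjusted library total. By their own symbols, 10 embryonic stem cell markers together held 352 to 368 counts in KO1, 358 to 368 in KO2 and 339 to 360 in wild type, with none at 0. Fibroblast markers held 11 to 13, 2 to 6 and 9 to 14 counts in the same order with 5 of 7 at 0 throughout, endoderm markers at most 1 with 3 of 4 at 0, mesoderm markers 5 to 12, 20 to 25 and 18, and neuroectoderm markers, nearly all Pax6, 218 to 223, 167 to 204 and 178 to 191. These counts are read on the opposite strand as well, so they check the labelled cell type only weakly, and the counts of Nsd1, 38 to 55 in KO1, 21 to 27 in KO2 and 21 to 25 in wild type, do not check the deletion. Opposite Col1a1 of the fibroblast list, Gm17329 held 1 to 94 counts per library. Opposite the stem cell marker Lin28a, Gm13061 held 362 to 515. Elp4 opposite Pax6 held at most 1, and 1010001N08Rik opposite Gata6 held 0.

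With the NSD1-/- lines together against wild type, 14 inner genes rose and 33 fell, 13.3% of the 353. The largest rises were at genes inside Bhmt, Galnt6, Tgm2, Gm5134 and Grin1, and the most abundant falls at genes inside Zfp106, Gnas, Tdh, Ptbp1 and Malat1, of which the gene inside Tdh fell in KO1 and rose in KO2. Among all 5034 tested genes, 2.72% were called higher and 3.89% lower. The median log2 fold change was -0.07 over inner genes and -0.01 over all tested genes. In bulk RNA, fewer cells of a type and less RNA per cell cannot be told apart. In 31 of the 47 called inner genes the 4 knockout libraries did not overlap the wild type libraries. Both lines passed the test in the same direction in 10 of the 47, KO1 alone in 19 and KO2 alone in 16. In 1, Gm16282 inside Rasgrp4, neither line passed by itself, and in 1, Gm17232 inside Tdh, the lines passed in opposite directions. In 31 the lines also differed from each other. None of these shares was counted over all called genes.

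Of the 171 outer genes, 4 rose and 12 fell, 9.36%, with a median log2 fold change of -0.04. Over all tested genes, as given above, 2.72% were called higher and 3.89% lower. Syn3 around Timp3 had by far the lowest value, and the others changed by less than 1 on the log2 scale. In 12 of these 16 the knockout and wild type libraries did not overlap. Both lines passed in the same direction in 6, KO1 alone in 5 and KO2 alone in 4, and in 1, Rtl1 around Mir433, KO1 rose and KO2 fell. The lines also differed from each other in 10 of the 16. These shares, too, were not counted over all called genes.

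These counts depend on how the spread between the lines is treated. With the 4 knockout libraries fitted as a single group, so that the difference between KO1 and KO2 counts as spread, 2 inner genes, E130003G02Rik and Gm11175, and 1 outer gene, Syn3, were called, of 6 called among all 5034 genes. By DESeq2 12 inner and 5 outer genes were called, of 91 among all genes. Of the members named below and called with the lines together, DESeq2 kept 15 of the 45 it gave an adjusted p. The single knockout group kept 3 of 49. Without wild type replicate 1 or 2 fewer inner genes were called, and fewer over all genes as well.

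In every arrangement of overlapping genes the share called was highest at 1000 or more counts. Among inner genes 9.78% of 92 with 60 to under 200 counts, 8.66% of 127 with 200 to under 1000 and 20.1% of 134 with 1000 or more were called. Outer genes gave 0 of 81, 12.3% of 65 and 32.0% of 25 in the same order. The 0 of 81 is by edgeR, with 7 at an unadjusted p under 0.05 and 0 by DESeq2. Genes that overlap tail to tail gave 4.07%, 5.97% and 13.3%, and those that overlap head to head 5.0%, 5.05% and 15.8%. Genes with no partner gave 1.63%, 3.79% and 3.13%. The differences between these arrangements were not tested, and both the depth and the kind of transcript move with them.

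**Figure D2:**
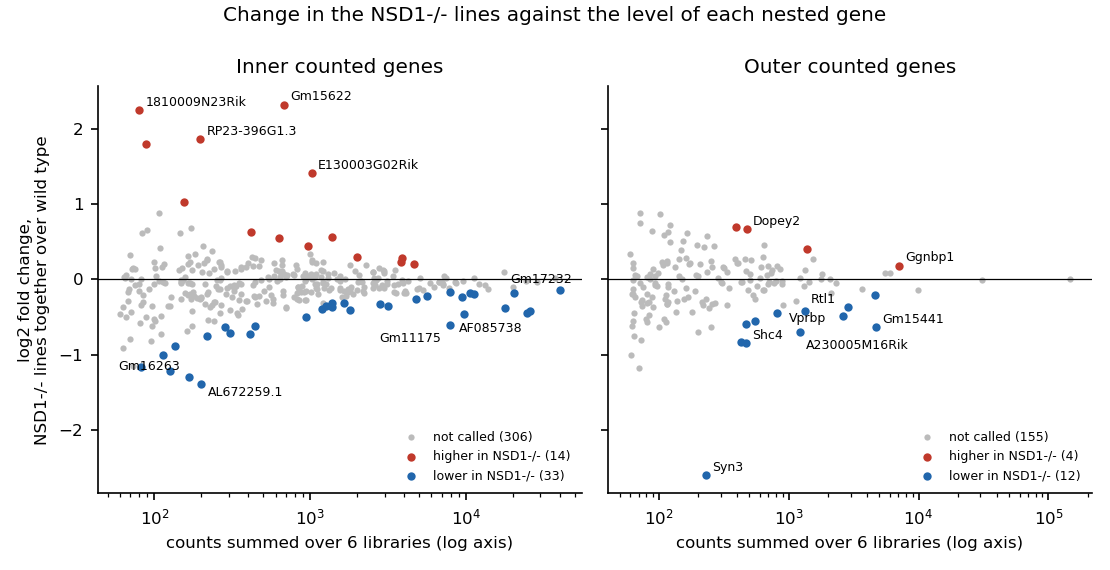
The log2 fold change of the NSD1-/- lines together over wild type (vertical) against the counts summed over 6 libraries (horizontal, log axis), for inner genes at left and outer genes at right. Red points are called higher (14 inner, 4 outer), blue points lower (33 inner, 12 outer) and grey points were not called, and Syn3 lies lowest at -2.60.

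The largest rise among inner genes was at Gm15622 inside Bhmt, which remethylates homocysteine to methionine from betaine. Gm15622 had 54.2 and 49.5 CPM in KO1, 220.1 and 212 CPM in KO2 and 25.4 and 17.00 CPM in wild type. Both lines lay above wild type without overlap, and KO2 lay above KO1 as well. The log2 fold change was 2.32 ± 0.19 (SE) with an adjusted p of 5.3e-10 by edgeR.

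E130003G02Rik shares 1307 exon bases in 11 blocks with Grin1, the subunit that every NMDA-type glutamate receptor contains, and Grin1 itself had 16 counts in all. E130003G02Rik had 219 and 198 CPM in KO1, 160.4 and 148 CPM in KO2 and 67.4 and 67.2 CPM in wild type. All 4 knockout libraries lay above both wild type libraries, with KO1 highest. It had a log2 fold change of 1.41 ± 0.12 (SE), adjusted p 1.5e-09.

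RP23-396G1.3 inside Tgm2, a transglutaminase that crosslinks proteins, had 29.9 and 51.1 CPM in KO1, 26.7 and 37.9 CPM in KO2 and 7.0 and 12.8 CPM in wild type. The libraries of each knockout line scattered widely, and all 4 lay above both wild type libraries. Its log2 fold change was 1.86 ± 0.32 (SE), adjusted p 0.0002. Tgm2 had 1 count.

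The other large rises rest on few counts. 1810009N23Rik inside Galnt6, an enzyme that starts O-linked glycosylation, had 15.4 and 23.5 CPM in KO1, 9.80 and 12.4 CPM in KO2 and 0.875 and 5.10 CPM in wild type, a log2 fold change of 2.24 ± 0.50 (SE) and an adjusted p of 0.0041. Gm16220 inside Gm5134 had 10.5 and 10.1 CPM in KO1, 17.8 and 27.2 CPM in KO2 and 3.50 and 5.10 CPM in wild type, 1.80 ± 0.43 (SE) and 0.0069. Both were no longer called without wild type replicate 1, with log2 fold changes of 1.51 and 1.57. 4922502B01Rik inside D030068K23Rik was called at 1.03 ± 0.31 (SE), but its KO2 libraries overlapped wild type, and it was not called without either wild type library (1.10 and 0.96), KO1 replicate 2 (0.95) or KO2 replicate 2 (0.73).

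Smaller rises were seen at 7 further inner genes. Gm16000 inside Pdgfc, a platelet-derived growth factor, had a log2 fold change of 0.55 ± 0.14 (SE) and AI507597 inside Tmem82 one of 0.63 ± 0.17 (SE). Gm15541 inside Prx, the myelin protein periaxin, had 0.44 ± 0.11 (SE), and D130058E05Rik inside Gbx2, a homeobox factor of the early brain that is also active in embryonic stem cells, 0.29 ± 0.08 (SE). Gm4673 inside Lsr, a lipoprotein receptor of epithelial contacts, had 0.29 ± 0.06 (SE), RP23-349N15.1 inside Yap1, the effector of Hippo signalling, 0.23 ± 0.06 (SE) and Gm13571 inside Ly75, an endocytic receptor, 0.20 ± 0.06 (SE). In all 7 the 4 knockout libraries lay above both wild type libraries. The lines differed from each other at Gm4673, AI507597 and Gm16000. Gm4673 had 0.07 ± 0.07 (SE) in KO1, which was not called, and 0.50 ± 0.07 (SE) in KO2. AI507597 had 0.19 in KO1 and 1.07 in KO2, and Gm16000 0.77 in KO1 and 0.32 in KO2. Gm4673 stayed called without any 1 library, but not by DESeq2 (0.29, adjusted p 0.079). Each of the other 6 was lost without 1 or more libraries. The log2 fold changes there were 0.54 and 0.56 for Gm16000, 0.61 and 0.52 for AI507597 and 0.33 for Gm15541. They were 0.27 and 0.23 for D130058E05Rik, 0.20 to 0.26 for RP23-349N15.1 and 0.19 to 0.22 for Gm13571.

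Among the falls, Gm11175 inside Jund was even across the lines. Jund is a member of the AP-1 family of transcription factors whose gene has no intron. Gm11175 had 1012 and 972 CPM in KO1, 895 and 933 CPM in KO2 and 1508 and 1393 CPM in wild type. The knockout libraries lay close together and below wild type, at -0.61 ± 0.05 (SE), adjusted p 5.3e-10. Jund, itself an outer member with 202 counts, had 21.02 and 31.02 CPM in KO1, 22.3 and 20.6 CPM in KO2 and 36.7 and 39.96 CPM in wild type and -0.70 ± 0.22 (SE), adjusted p 0.0502.

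Gm17080 lies inside Slc29a1, an equilibrative nucleoside transporter, and had 1023 and 1035 CPM in KO1, 1389 and 1457 CPM in KO2 and 1715 and 1620.4 CPM in wild type. The 3 groups did not overlap, with KO1 lowest and KO2 between. Its log2 fold change was -0.46 ± 0.05 (SE), adjusted p 3.6e-08. 1810012K08Rik inside C330006A16Rik had the same order of groups and -0.41 ± 0.08 (SE), and was not called by DESeq2 (adjusted p 0.072).

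Of the abundant inner genes, Gm17134 inside Ptbp1, a repressor of neuronal splicing, had 2578 and 2721 CPM in KO1, 2840.3 and 2825 CPM in KO2 and 3169 and 3061 CPM in wild type and a log2 fold change of -0.19 ± 0.04 (SE). Gm17675 inside Zfp106 had -0.15 ± 0.04 (SE) and Gm17108 inside Nsun2, an RNA cytosine methyltransferase, -0.19 ± 0.05 (SE). The lines differed from each other at both. Gm17675 had -0.07 in KO1 and -0.22 in KO2. Gm17108 had -0.30 in KO1 and -0.07 in KO2, where it was not called. The calls of Gm17134, Gm17675 and Gm17108 with the lines together depended on single libraries. Gm17134 was not called without wild type replicate 1 (-0.16), Gm17675 without KO1 replicate 1 (-0.13), KO2 replicate 1 (-0.11) or wild type replicate 1 (-0.13), and Gm17108 without KO1 replicate 1 (-0.17) or either wild type library (-0.18 each). Gm17638 inside Eif3d at 0.01 ± 0.04 (SE), Gm17659 inside Morf4l1, which binds methylated H3K36, at -0.02 ± 0.04 (SE) and Gm17327 inside Gpi1, the second enzyme of glycolysis, at -0.10 ± 0.05 (SE) did not pass the test. Gm17327 fell in KO1, at -0.26 ± 0.05 (SE).

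The largest falls among inner genes, led by AL672259.1 at -1.39 ± 0.27 (SE), were at low levels. Gm16263 inside Fgf10, a growth factor of limb and lung, had 9.70 and 10.9 CPM in KO1, 21.4 and 24.7 CPM in KO2 and 36.7 and 39.1 CPM in wild type. Every knockout library lay below wild type and KO1 below KO2, with -1.29 ± 0.23 (SE), adjusted p 0.00039. Gm16263 stayed called without any 1 library, but not by DESeq2 (-1.30, adjusted p 0.065). 2310043D23Rik inside Ift88, a part of the transport machinery of cilia, had -1.21 ± 0.26 (SE) and was lost without wild type replicate 1 (-1.07). Gm15817 inside Lrrc8d, a subunit of the volume-regulated anion channel, had 54.2 and 41.1 CPM in KO1, 49.02 and 46.99 CPM in KO2 and 84.9 and 73.1 CPM in wild type and -0.72 ± 0.16 (SE), and was lost without wild type replicate 1 (-0.61).

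Gm15852 inside 1700084C01Rik had -1.01 ± 0.27 (SE), Gm5812 inside Tulp4 -1.16 ± 0.34 (SE), and Gm16282 inside Rasgrp4, a Ras activator of mast cells, -0.89 ± 0.26 (SE). Gm15353 inside Mcf2l had -0.63 ± 0.18 (SE) and 4932442E05Rik inside the kinase gene Dyrk2 -0.63 ± 0.16 (SE). In all 5 the knockout libraries lay below both wild type libraries, and all 5 were lost without 1 or more libraries. There the log2 fold changes were -0.87 without KO1 replicate 1, -0.98 and -1.02 without a wild type library for Gm15852, -1.07 to -1.21 for Gm5812, -0.75 to -0.94 for Gm16282, -0.60 to -0.66 for Gm15353, and -0.56 and -0.59 for 4932442E05Rik.

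The outer gene that fell most was Syn3, a synapsin gene whose span holds Timp3, an inhibitor of metalloproteinases of the extracellular matrix. Syn3 had 12.9 and 15.9 CPM in KO1, 8.02 and 12.4 CPM in KO2 and 65.6 and 82.5 CPM in wild type, while the counts of Timp3 summed to 13. All knockout libraries lay far below wild type, and the difference between the lines, 0.48 ± 0.38 (SE), did not pass the test (adjusted p 0.41). Syn3 had a log2 fold change of -2.60 ± 0.21 (SE), adjusted p 5.3e-10.

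A230005M16Rik around Bmyc, a gene related to Myc, had 127 and 109.8 CPM in KO1, 171 and 167 CPM in KO2 and 226 and 235 CPM in wild type. Shc4 around Eid1, which binds the acetyltransferase p300 and inhibits differentiation, had 38.00 and 47.8 CPM in KO1, 65.1 and 63.5 CPM in KO2 and 94.5 and 94.4 CPM in wild type. Gm15441 around Txnip, a brake on thioredoxin and glucose uptake, had 512 and 485 CPM in KO1, 646 and 632 CPM in KO2 and 885 and 869 CPM in wild type. In each of the 3 the groups did not overlap and KO1 lay lowest. Their log2 fold changes were -0.70 ± 0.10, -0.85 ± 0.14 and -0.64 ± 0.06 (SE), with adjusted p of 7.6e-06, 0.0002 and 1.7e-09, and all were called without any 1 library.

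Nphs1 around Nphs1as had 40.4 and 62.04 CPM in KO1, 51.7 and 38.7 CPM in KO2 and 77.9 and 93.5 CPM in wild type and -0.84 ± 0.17 (SE). By DESeq2 it was not called (-0.83, adjusted p 0.086). Nphs1 codes for nephrin of the kidney filter, and here it was read as the opposite strand. Vprbp around Rbm15b, an adaptor of the m6A writing complex, had 407 and 398 CPM in KO1, 258 and 264 CPM in KO2 and 451 and 457 CPM in wild type. KO2 lay well below the other groups, and the log2 fold change was -0.48 ± 0.07 (SE). Tcte1 around Gm17441 had -0.56 ± 0.14 (SE), Gm15444 around the histone H2A gene Hist2h2ab -0.43 ± 0.09 (SE) and D030055H07Rik around Glyctk, glycerate kinase, -0.45 ± 0.12 (SE). Without wild type replicate 1 these 3 were not called (-0.49, -0.33 and -0.38), and neither was Tcte1 without KO1 replicate 1 (-0.49) nor D030055H07Rik without KO2 replicate 2 (-0.38). Ccdc116 around Gm15646 and Mapk8ip3 around Mrps34, a mitochondrial ribosomal protein, fell in KO1 with KO2 near wild type, and their values together were -0.60 ± 0.15 and -0.21 ± 0.06 (SE). Ccdc116 was lost without wild type replicate 2 (-0.47), and Mapk8ip3 without it (-0.12) or KO1 replicate 2 (-0.20).

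Outer genes rose in 4 cases. Rbbp4 codes for a histone-binding subunit shared by deacetylase complexes and the H3K27 methyltransferase complex, and it encloses Gm17525, which held 9539 counts. Rbbp4 had 48.5 and 56.2 CPM in KO1, 65.1 and 84.9 CPM in KO2 and 38.5 and 39.1 CPM in wild type, a log2 fold change of 0.69 ± 0.18 (SE), while Gm17525 had -0.03 ± 0.05 (SE) and was not called. Dopey2 around 2310043M15Rik had 77.6 and 80.5 CPM in KO1, 69.5 and 78.3 CPM in KO2 and 42.00 and 54.4 CPM in wild type and 0.66 ± 0.16 (SE), and Ggnbp1 around Bak1 0.18 ± 0.05 (SE). Rbbp4 was not called without either wild type library (0.68 and 0.71) or KO1 replicate 2 (0.63), Dopey2 without wild type replicate 1 (0.49), and Ggnbp1 without either wild type or either KO1 library (0.18 to 0.19). The fourth was Gm17523 around Zfp26, outside the rule for named genes and named after its values were seen, at 0.40 ± 0.11 (SE) with overlapping libraries.

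**Figure D3:**
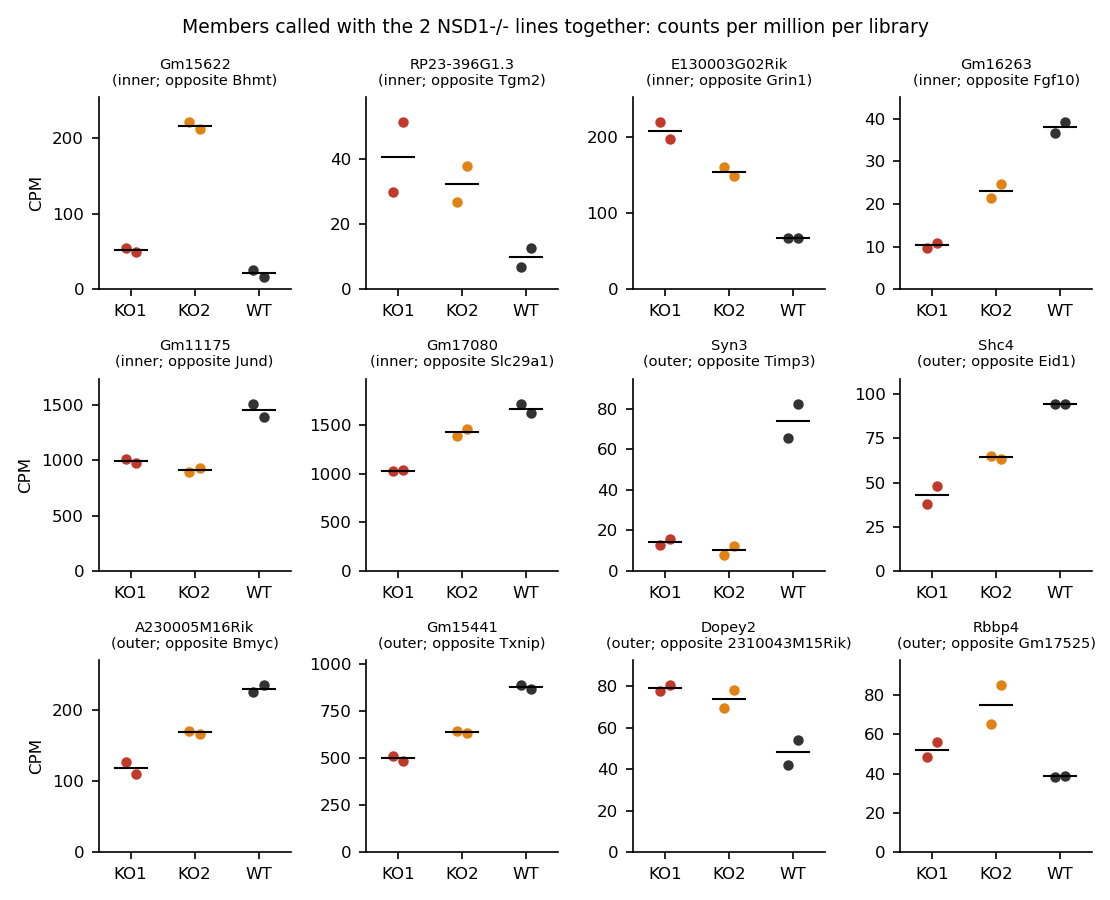
CPM in each library (points) and the mean of 2 libraries (short lines) for KO1, KO2 and wild type, in 12 members called with the lines together, each panel on its own linear scale starting at 0. Syn3 lies at 8.02 to 15.9 CPM in the knockout libraries and at 65.6 and 82.5 CPM in wild type, and Gm15622 reaches 220.1 CPM in KO2.

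In KO1 against wild type, 16 inner genes rose and 43 fell, and 15 outer genes rose and 14 fell. Among all tested genes 3.46% were called higher and 6.34% lower. In KO2 against wild type 19 inner genes rose and 30 fell, and 7 outer genes rose and 16 fell, where 5.01% of all tested genes were called higher and 3.97% lower. Both comparisons share the wild type libraries. Between the lines, KO1 against KO2, 41 inner genes were higher and 65 lower in KO1, and 21 outer genes were higher and 29 lower. The background there was 7.93% higher and 11.4% lower. DESeq2 called 25 inner genes in KO1 (5 higher, 20 lower) and 12 outer genes (2 higher, 10 lower), 19 inner (8 and 11) and 3 outer genes (0 and 3) in KO2, and 49 inner (13 and 36) and 19 outer genes (8 and 11) between the lines. Over all genes it called 182 in KO1 (33 higher, 149 lower), 137 in KO2 (96 and 41) and 370 between the lines (74 and 296). Fewer outer genes were called in KO1 without either KO1 library. The same held in KO2 without KO2 replicate 2 or either wild type library. Between the lines fewer inner and outer genes were called without either KO1 library. In each of these cases fewer were called over all genes as well.

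A shift of low genes moves with the comparison of the lines. The 1662 tested genes with no partner had a median log2 fold change of 0.22 for KO1 over KO2, with 176 called higher and 25 lower. The median was 0.26 over outer genes with 60 to under 200 counts, 0.22 over inner genes with 60 to under 200 counts, and -0.09 over inner genes with 1000 or more. The part of this shift in the rises of low genes in KO1 was not tested.

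The largest contrast at a high level was at Gm17232 inside Tdh, which turns threonine into a source of acetyl-CoA and glycine. Gm17232 had 1784 and 1715 CPM in KO1, 4831 and 4854 CPM in KO2 and 3874 and 4038 CPM in wild type. Its KO1 libraries lay far below wild type and its KO2 libraries above it. The log2 fold change was -1.18 ± 0.05 in KO1 and 0.29 ± 0.05 in KO2 (SE), and -1.47 ± 0.05 for KO1 over KO2, adjusted p 6.2e-20. Tdh, the outer gene with 115 counts, had 8.09 and 7.55 CPM in KO1, 31.2 and 17.3 CPM in KO2 and 12.2 and 22.1 CPM in wild type and -1.61 ± 0.39 (SE) between the lines, adjusted p 0.0034.

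Gm16764 inside Nkx1-2, a homeobox factor of posterior progenitors, had 286 and 293 CPM in KO1, 713 and 704 CPM in KO2 and 433 and 447 CPM in wild type. The lines lay on either side of wild type, and the value for both lines together, 0.04 ± 0.07 (SE), was not called. Between the lines Gm16764 had -1.29 ± 0.07 and Nkx1-2, the outer gene with 74 counts, -1.62 ± 0.46 (SE), and both were called.

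AL672259.1 is an annotated miRNA gene whose 87 overlapping bases lie in untranslated sequence of Nnat, an imprinted gene for a small membrane proteolipid. AL672259.1 had 4.85 and 3.35 CPM in KO1, 49.9 and 41.2 CPM in KO2 and 31.5 and 40.8 CPM in wild type. KO1 lay far below wild type and KO2 just above it. The log2 fold change was -3.10 ± 0.38 in KO1 and 0.33 ± 0.23 in KO2 (SE). Nnat, the outer gene, had 62.3 and 42.8 CPM in KO1, 47.2 and 38.7 CPM in KO2 and 45.5 and 56.96 CPM in wild type and 0.30 ± 0.22 (SE) between the lines, adjusted p 0.37.

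The titin gene Ttn and the inner gene Gm13938 were both higher in KO1. Gm13938 had 31.5 and 39.4 CPM in KO1, 2.67 and 2.47 CPM in KO2 and 6.12 and 11.1 CPM in wild type, and Ttn had 57.4 and 72.1 CPM in KO1, 20.5 and 19.8 CPM in KO2 and 32.4 and 39.1 CPM in wild type. For both genes KO1 lay above and KO2 below wild type. Between the lines the log2 fold changes were 3.73 ± 0.43 and 1.68 ± 0.23 (SE).

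Nefm, a neurofilament subunit, encloses Nefl by the annotation used, and it had 184 and 165 CPM in KO1, 31.2 and 44.5 CPM in KO2 and 60.4 and 58.7 CPM in wild type. KO1 rose by 1.55 ± 0.15 (SE) and KO2 fell, at -0.64 ± 0.20 (SE, adjusted p 0.046). Thbs3, a thrombospondin inside Mtx1, had 38.00 and 30.2 CPM in KO1, 13.4 and 7.42 CPM in KO2 and 24.5 and 33.2 CPM in wild type. Here KO2 fell, at -1.48 ± 0.34 (SE), and KO1 was not called, at 0.24 ± 0.26.

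Further inner genes fell in 1 line. Gm16573 inside Parp4 had 19.4 and 16.8 CPM in KO1, 44.6 and 71.7 CPM in KO2 and 53.4 and 53.6 CPM in wild type, with -1.56 ± 0.26 in KO1 and 0.13 ± 0.21 in KO2 (SE), and its call for the lines together was lost without any of KO1 replicate 1 (-0.76) or 2 (-0.67), KO2 replicate 1 (-0.56) or either wild type library (-0.71 and -0.70). Gm17447 inside Arsb, a lysosomal sulfatase, fell in KO1, at -1.44 ± 0.40 (SE), and had -0.19 ± 0.33 in KO2, which was not called. 1700006J14Rik inside Hmga2, a chromatin protein of growing cells, had 40.4 and 31.9 CPM in KO1, 13.4 and 18.1 CPM in KO2 and 37.6 and 43.4 CPM in wild type and -1.35 ± 0.28 in KO2 (SE). For the lines together it was not called without KO1 replicate 2 (-0.69), KO2 replicate 1 (-0.65) or either wild type library (-0.85 and -0.64).

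Outer genes called in 1 line by the rule for names included Hnrnpd around Gm17092, Nfic around Gm16104 and Rnf220 around Gm12843. They were lower in KO2, at -0.97 ± 0.25, -1.57 ± 0.48 and -1.17 ± 0.37 (SE). Those higher in KO2 were Pomgnt1 around 1520402A15Rik, Tmem63b around Gm16172 and 4930481A15Rik around Gm6293. Their values were 0.83 ± 0.25, 0.59 ± 0.17 and 0.80 ± 0.22 (SE). Lsr around Gm4673, Cc2d1b around A730068I03Rik, Wdfy3 around WI1-1377A22.2 and Gm13663 around Gm17250 were higher in KO1. Their values were 0.88 ± 0.18, 1.39 ± 0.31, 1.07 ± 0.28 and 1.48 ± 0.37 (SE). Most of these outer genes are annotated as protein coding and Gm13663 as a lincRNA, but their counts were read as the opposite strand. Apart from Lsr, Tmem63b, Pomgnt1, Hnrnpd and 4930481A15Rik their libraries held under 40 CPM.

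**Figure D4:**
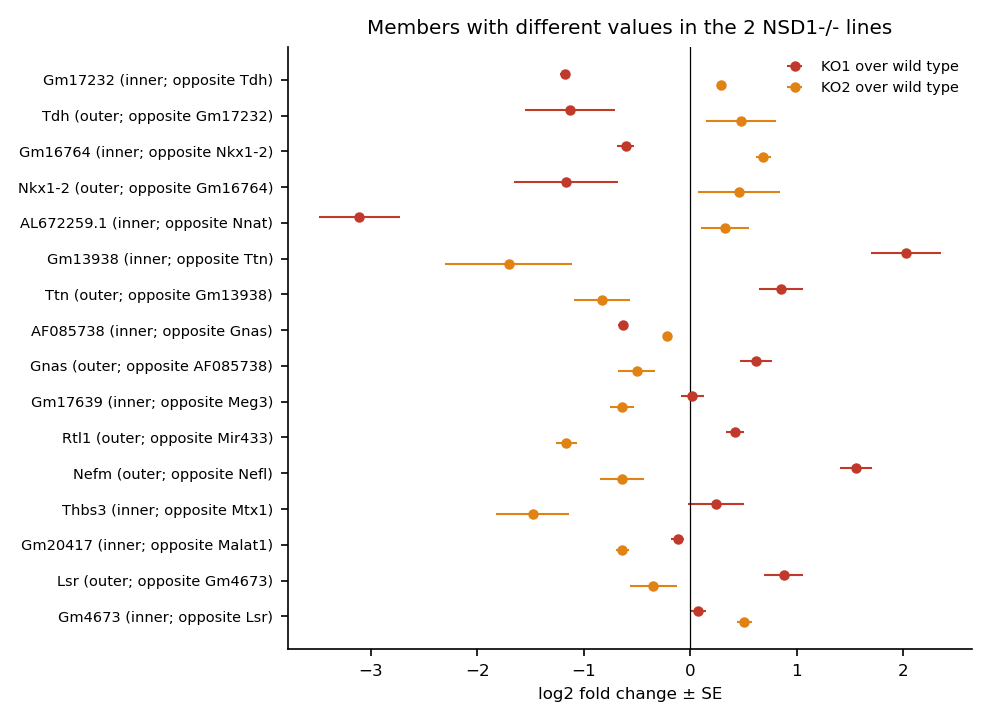
Log2 fold changes over wild type in KO1 (red) and KO2 (orange) with standard errors of the fit, for 16 members whose lines differ or whose partner does. Gm17232 lies at -1.18 in KO1 and 0.29 in KO2, and Rtl1 at 0.42 and -1.16.

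Imprinted loci held 8 members, of which 4 fell with the lines together and none rose, with a median log2 fold change of -0.21 beside -0.01 over all tested genes, of which 2.72% were called higher and 3.89% lower. Of the 4, Rtl1 rose in KO1, and AL672259.1 lay above wild type in KO2 without a call. In KO1 3 rose and 2 fell, and in KO2 none rose and 3 fell. The 8 members lie at few loci, Gnas, Nnat, H13 and a shared locus of Meg3 and Rtl1. Gm17639 and Rtl1, both among the 4 that fell, are at this shared locus. The list was written with earlier results of these data known, so it gives no independent support. Here and in the lists below, members were matched by their own symbol or by that of the gene opposite. AF085738 inside Gnas had 2742 and 2851 CPM in KO1, 3725 and 3751 CPM in KO2 and 4350.3 and 4325 CPM in wild type. The 3 groups did not overlap, with KO1 lowest, and the log2 fold change was -0.42 ± 0.04 (SE), adjusted p 3.8e-09. Gnas, counted on the other strand, had 154 and 115 CPM in KO1, 61.5 and 62.7 CPM in KO2 and 89.2 and 86.7 CPM in wild type. Gnas rose in KO1, at 0.62 ± 0.15 (SE), and was not called in KO2, at -0.50 ± 0.17 (SE, adjusted p 0.072 by edgeR). The 2 genes of this pair thus moved in opposite directions in KO1.

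Gm17639 inside Meg3, a noncoding RNA made from the maternal allele, had 240.1 and 202 CPM in KO1, 147 and 134 CPM in KO2 and 219 and 218 CPM in wild type. Both KO2 libraries lay below wild type and the KO1 libraries on either side of it, with KO2 at -0.64 ± 0.12 (SE). Rtl1, a gene of retrotransposon origin expressed from the paternal allele, had 639.5 and 527 CPM in KO1, 198 and 193 CPM in KO2 and 451 and 424 CPM in wild type. The counts of Rtl1 were read as the maternal transcript opposite it, on which Mir433, the miRNA printed above, is annotated. Rtl1 lies 17.5 kb from Gm17639. Rtl1 rose in KO1, at 0.42 ± 0.08 (SE), and fell in KO2, at -1.16 ± 0.10 (SE). Between the lines the log2 fold changes were 1.58 ± 0.09 for Rtl1 and 0.66 ± 0.12 for Gm17639 (SE), both called. For the lines together the call at Gm17639 (-0.31 ± 0.10, SE) was lost under 10 alternatives. It was lost without KO1 replicate 2 (-0.26), KO2 replicate 2 (-0.27) or either wild type library (-0.31 and -0.30). It was also lost by DESeq2 (-0.31), with RLE size factors (-0.30) and without a filter on low counts (-0.32). A minimum count of 20 (-0.29), AY036118 left out (-0.30) and a single knockout group (-0.27) lost it too. H13 and Gm17559 inside H13 were not called, at 0.24 ± 0.21 and 0.04 ± 0.09 (SE), while H13 rose in KO1 alone of the lines, at 0.73 ± 0.22.

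Gm20417 inside Malat1, an abundant nuclear noncoding RNA, had 2925 and 2469 CPM in KO1, 1872 and 1898 CPM in KO2 and 2961 and 2904 CPM in wild type. KO2 lay below the other groups, which overlapped, with -0.64 ± 0.06 in KO2 and -0.12 ± 0.06 in KO1 (SE). Gm17300 inside Snhg3 had 4485 and 4673 CPM in KO1, 3588 and 3246 CPM in KO2 and 4174 and 3918 CPM in wild type, and it was higher in KO1 and lower in KO2 than wild type, at 0.18 ± 0.05 and -0.24 ± 0.05 (SE). Gm17588 inside Nynrin had -0.16 ± 0.05 in KO1 and 0.34 ± 0.05 in KO2 (SE), of which the second passed the test.

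Neuronal genes held 9 members, of which 1 rose and 1 fell with the lines together, with a median of 0.06, beside 2.72% called higher and 3.89% lower over all tested genes. Besides E130003G02Rik and Syn3, Gm11149 inside the adhesion gene Ncam1 had 151 and 151 CPM in KO1, 84.7 and 83.3 CPM in KO2 and 121 and 128 CPM in wild type, and fell in KO2 at -0.57 ± 0.14 (SE). Gm16183 inside the calcium channel gene Cacna1a had 0.06 ± 0.13 (SE), and Gm15609 inside Shank3, a scaffold of synapses, 1.77 ± 0.49 (SE) between the lines on 71 counts. Glycolysis and one-carbon metabolism held 6 members, with 1 rise, at Gm15622, and 2 falls, at Gm15441 and Gm17232, and a median of -0.22, beside the same shares over all tested genes. Pluripotency held Gm17232 and Tdh, of which Gm17232 fell with the lines together. In KO2 Gm17232 rose, as given above, so that 2 of the 6 metabolic members and 1 of these 2 rose there.

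Extracellular matrix held 2 members, Syn3 around Timp3 and Gm13372 inside the collagen gene Col5a1 at -1.15 ± 0.37 (SE, adjusted p 0.056), which fell in KO2, at -1.61 ± 0.47 (SE). Methylation at H3K36 and H3K27 held 3, Rbbp4, Gm17525 inside it and Kdm2b. The counts of Rbbp4, read as the opposite strand, rose, while Gm17525, read as RNA of Rbbp4, was not called. Kdm2b around A930024E05Rik, which codes for a demethylase of H3K36, had -0.33 ± 0.19 (SE). Growth factors held Gm16263, which fell, and developmental transcription factors held Dlx1as at -0.28 ± 0.36 (SE). The ribosomal protein list held Wdr38 and Rpl35 at -0.01 ± 0.04 and -0.02 ± 0.25 (SE), neither called. Histone acetylation held none.

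Pairs in which both genes are members numbered 112. The inner gene had more counts in 78, at least 10 times as many in 36, and in 34 the counts lay within 3-fold of each other. With the lines together, no pair had both genes called by edgeR (4 at an unadjusted p under 0.05 and 0 by DESeq2), 19 had the inner gene alone and 7 the outer gene alone. In KO1 both were called in 3 pairs, 2 of them in the same direction, and in KO2 in 1, Gm11175 and Jund. Between the lines both were called in 10 pairs, of which 6 moved in the same direction. The 4 that moved apart were AF085738 and Gnas, Gm4673 and Lsr, A730068I03Rik and Cc2d1b, and Gm17688 and 1810019J16Rik, and in each the outer gene was higher in KO1 and the inner gene lower.

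The pair with the highest smaller count was Sco2 inside Ncaph2. Sco2, an assembly factor of cytochrome oxidase, had 405 and 385 CPM in KO1, 419.8 and 396 CPM in KO2 and 418 and 426 CPM in wild type, and Ncaph2, a subunit of condensin II, had 310.5 and 324 CPM in KO1, 334 and 325 CPM in KO2 and 333 and 336 CPM in wild type. In both genes KO1 lay just below wild type and KO2 overlapped it, with -0.07 ± 0.07 and -0.05 ± 0.07 (SE). Msto1 and Gon4l had -0.12 ± 0.06 and -0.00 ± 0.08, Gm17201 and Ankrd52 0.21 ± 0.10 and -0.29 ± 0.10, and Pigb and Ccpg1 -0.02 ± 0.11 and 0.02 ± 0.13 (SE), none called with the lines together.

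Nr2c2ap inside Rfxank, a factor needed for class II genes of the major histocompatibility complex, had -0.11 ± 0.11 in KO1 and was not called, while Rfxank had 424 and 379 CPM in KO1, 592 and 625 CPM in KO2 and 533 and 545 CPM in wild type and fell in KO1, at -0.42 ± 0.08 (SE). Gm15265 and Pi4kb had 0.11 ± 0.08 and 0.17 ± 0.13, 9130221H12Rik and Gsk3a -0.07 ± 0.05 and 0.29 ± 0.14, Gm16568 and 5830418K08Rik -0.04 ± 0.06 and 0.12 ± 0.13, and Nsun2, around Gm17108, -0.06 ± 0.13 (SE). None of these 7 was called.

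**Figure D5:**
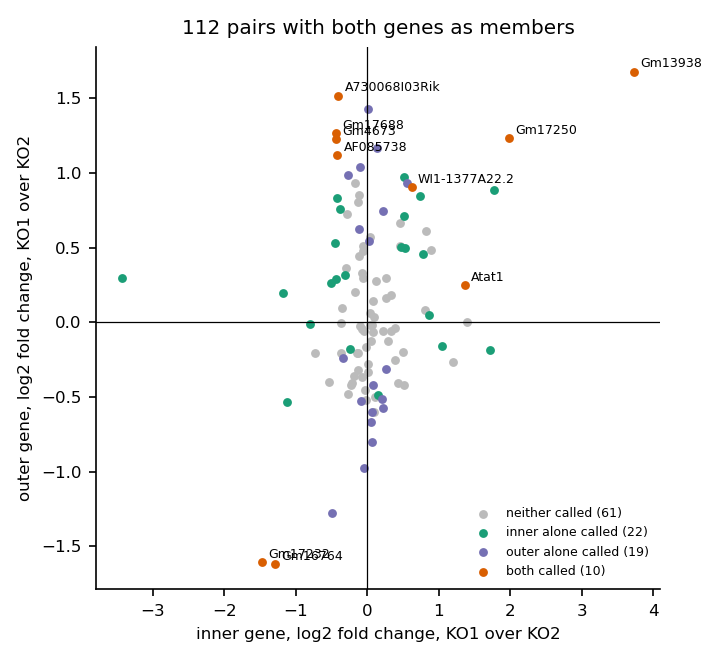
The log2 fold change of KO1 over KO2 in the outer gene (vertical) against that in the inner gene (horizontal) for 112 pairs with both genes as members, coloured by which gene was called. Both were called in 10 pairs, which carry the name of the inner gene, and 4 of these lie at upper left, where the outer gene is higher and the inner gene lower in KO1.

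Partners with 2 members inside or around them numbered 9, and such members overlap the same gene, so they were not taken as independent. Inside Slain1, a microtubule-binding protein, 4921525B02Rik had -0.80 ± 0.20 in KO1 and 0.36 ± 0.17 in KO2, and AC125201.1 -0.53 ± 0.22 and 0.39 ± 0.19 (SE). Between the lines both were called, at -1.16 ± 0.19 and -0.92 ± 0.21. Inside Rbm38, an RNA-binding protein, Gm14453 and RP23-368M21.6 had -0.19 ± 0.06 and -0.18 ± 0.07 with the lines together, neither called, and Gm14453 fell in KO1, at -0.31 ± 0.07 (SE). The 2 members inside Ube4b, Pi4kb, Mtus1, Usp46, Prkag2 and Acad11 were called in no comparison. At Glyctk, D030055H07Rik encloses the gene and fell, and Mir135a-1 lies inside it and had -0.91 ± 0.41 (SE, adjusted p 0.23).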

How the data were processed

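RNA from 6 libraries was analysed, 2 each from KO1, KO2 and wild type, and the 44 chromatin samples were not analysed here. The authors deposited raw counts of paired fragments per gene, made with featureCounts 2.0.1 at a strand setting of 1 over GENCODE exons on mm9, per the file headers. The submitters' processing notes also name STAR 2.5.4b, featureCounts 2.0.0, Trim Galore 0.6.4, bedtools 2.92.2, GATK 4.1.4.0 and Bowtie2, without roles. Annotated coordinates of exons were read from the same tables, and sequences and splice sites from the mm9 genome. Counts were filtered with a minimum count of 10, scaled by TMM and fitted over 3 groups with the quasi-likelihood test of edgeR 4.0.16 in R 4.3.3, with Benjamini-Hochberg adjustment over 5034 genes. The script was tested on simulated data. The fit had 3 residual degrees of freedom and a common biological coefficient of variation of 4.46%.

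The members and gene lists were chosen with earlier results of these data known. Named genes were, per class, up to 12 each way with the lines together and up to 5 each way in the other comparisons, by size among called genes whose libraries did not overlap with a mean of at least 5 CPM, the 10 with the most counts, the 10 pairs with the highest smaller sum, up to 4 per list and the 3 next to the threshold on each side. Same-numbered libraries did not deviate together (correlations of 0.0012, 0.028 and 0.0025), so numbers were not used as a block. Alternatives were DESeq2 1.42.0, other size factors and filters, AY036118 left out, the knockout libraries as a single group, each library left out, a replicate block and stricter member rules.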

Additional observations from a re-analysis of the deposited data

Results flagged for a closer look

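The effects of the 2 lines differed in 65 named members by the test of KO1 against KO2 itself, with the quasi-likelihood test of edgeR and an adjusted p under 0.05. Some of these members were named because they were called in this comparison, in which 19.3% of all tested genes were called. Values are log2 fold changes of KO1 over KO2. The 15 inner genes that were higher in KO1 than in KO2 were Gm13938 (3.73), Gm17250 (1.98), Gm15609 (1.77), Ccdc24 (1.76), Thbs3 (1.72), 4922502B01Rik (1.33), 1700006J14Rik (1.19), Gm11149 (0.85), Gm17639 (0.66), 4932442E05Rik (0.56), Gm20417 (0.52), Gm16000 (0.45), E130003G02Rik (0.44), Gm17300 (0.42) and Gm17675 (0.15). The 18 inner genes that were lower in KO1 than in KO2 were AL672259.1 (-3.43), Gm15622 (-2.06), Gm16573 (-1.69), Gm17232 (-1.47), Gm16764 (-1.29), Gm17447 (-1.25), Gm16263 (-1.16), Gm16220 (-1.13), 2310043D23Rik (-1.08), AI507597 (-0.88), Gm17588 (-0.50), Gm17080 (-0.47), Gm4673 (-0.43), AF085738 (-0.42), 1810012K08Rik (-0.41), Gm17327 (-0.31), Gm17108 (-0.24) and Gm17659 (-0.16).

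The 12 outer genes that were higher in KO1 than in KO2 were Nefm (2.20), Ttn (1.68), Rtl1 (1.58), Cc2d1b (1.52), Xkr5 (1.42), Gm13663 (1.23), Lsr (1.22), Rnf220 (1.196), Gnas (1.12), Wdfy3 (0.91), Vprbp (0.63) and Gm16279 (0.25). The 20 outer genes that were lower in KO1 than in KO2 were Nkx1-2 (-1.62), Tdh (-1.61), Trim34a (-1.54), Ccdc116 (-1.28), 4930505H01Rik (-1.02), Tcte1 (-0.87), Pomgnt1 (-0.80), 4930481A15Rik (-0.73), Tmem63b (-0.67), Rfxank (-0.60), Shc4 (-0.58), Rbbp4 (-0.53), Ccpg1 (-0.51), A230005M16Rik (-0.51), 4930558J22Rik (-0.50), Mapk8ip3 (-0.43), Gm15441 (-0.36), Gm15444 (-0.31), Wdr38 (-0.24) and Gm17431 (-0.20). Genes with no partner had a median of 0.22 in the same comparison, whose part in these values was not tested.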

How the results depend on the processing

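Counts of called members moved most with DESeq2 and with the treatment of the lines. With the lines together, 47 inner genes became 12 by DESeq2 and 2 when the 4 knockout libraries formed 1 group, and 16 outer genes became 5 and 1. By DESeq2, 59 inner and 29 outer genes in KO1 became 25 and 12, 49 and 23 in KO2 became 19 and 3, and 106 and 50 between the lines became 49 and 19. Over all genes, 333 called with the lines together became 91 by DESeq2 and 6 with the knockout libraries as 1 group. By DESeq2, 493 in KO1 became 182, 452 in KO2 became 137, and 971 between the lines became 370. Without a filter on low counts the outer genes called in KO2 numbered 14, and 382 were called over all genes. With an overlap of at least 200 bases the inner genes called between the lines numbered 69. The members themselves numbered 219 inner genes at that overlap, and 112 outer genes at a summed count of at least 120. Leaving out each library in turn gave 23 to 44 inner and 11 to 21 outer genes with the lines together, 40 to 70 and 17 to 32 in KO1, 33 to 46 and 9 to 21 in KO2, and 66 to 116 and 27 to 52 between the lines. The replicate block gave 46 and 17 with the lines together, 57 and 26 in KO1, 46 and 20 in KO2, and 105 and 47 between the lines, in the order inner and outer. Over all genes it gave 321, 482, 416 and 935 in the same comparisons. No log2 fold change of a named member with the lines together changed its sign while called under these alternatives, which leaves out the calls that were lost. DESeq2 kept 15 of 45 such calls, and the knockout libraries as 1 group kept 3 of 49. The cause of the changed counts was not tested. Low members are less precise, since a library had a median of 23 to 27 counts over tested genes.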

Other observations

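Neighbouring members at 2 loci, chosen after their values were seen, moved in the lines as follows. On chromosome 13, Gm15622 inside Bhmt rose in both lines, and AW495222 inside Dmgdh, a gene of the same pathway that lies 77.5 kb away, had log2 fold changes of 0.25 ± 0.13 in KO1 and 0.86 ± 0.12 in KO2 (SE). Gm17447 inside Arsb, 221.8 kb further on, had -1.44 ± 0.40 and -0.19 ± 0.33. On chromosome 12, Gm17639 and Rtl1 both fell in KO2, at -0.64 ± 0.12 and -1.16 ± 0.10 (SE).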
